A study of Homo sapiens with 6 samples.

Results

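The middle segment of the human long noncoding RNA CONCR, from C249 to C496 of the transcript as it was synthesised, was chosen by position alone. It holds 53 of 160 A, 76 of 203 C, 69 of 210 G and 50 of 171 U upstream of the reverse primer site, 33.3% of the nucleotides measured. CONCR is listed as DDX11-AS1 in the RefSeq gene table of assembly GRCh38.p14, and the series title places a domain that engages the helicase DDX11 at the 3' end. Whether that domain reaches into the segment was not determined. The RNA was transcribed in vitro with the T7 system and probed without cell proteins, although the labels also carry the teratocarcinoma line NT2 and the genotype WT. The buffer held 5 mM MgCl2, 150 mM KCl and 50 mM HEPES (pH 7.4), and 3 pmol of RNA was equilibrated in it at 37 °C for 30 min. There were 2 groups, 3 libraries from RNA treated for 6 min with 10 mM 1M7 and 3 from RNA given the solvent DMSO. Nothing in the labels says that replicates were separate syntheses or foldings, so p-values measure no more than how these libraries spread, possibly for technical reasons.

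The reagent 1M7 (1-methyl-7-nitroisatoic anhydride) acylates the ribose 2'-hydroxyl of nucleotides that are free to move, as in loops and single strands, and reacts less with nucleotides held in base pairs. In SHAPE-MaP the reverse transcriptase reads through the adduct in a manganese buffer and leaves a mutation in the cDNA. The DMSO libraries give the mutations that arise without the reagent. The normalized reactivity used below is the authors' deposited score, the 1M7 mutation rate minus the DMSO rate multiplied by a fixed factor per replicate. Reactivities below 0.4 are called low and those above 0.85 high, limits in common use for such profiles.

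The segment is shown with nucleotides above 0.85 in the mean of 3 replicates in capitals, since the results below turn on where these lie.

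C249 to C496: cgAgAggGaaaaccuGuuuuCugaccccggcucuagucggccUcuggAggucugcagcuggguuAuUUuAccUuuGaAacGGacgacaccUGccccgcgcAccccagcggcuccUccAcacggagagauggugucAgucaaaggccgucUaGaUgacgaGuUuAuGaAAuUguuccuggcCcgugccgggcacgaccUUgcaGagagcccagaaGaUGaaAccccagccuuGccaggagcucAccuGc

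G and C make up 58.5% of the sequence, against 54.0% of the rest of the RNA. The median effective depth within it, the reads in which a mutation could be called at a nucleotide, was 145423, 159307 and 176932 in the libraries treated with 1M7 (replicates 1, 2 and 3). Those given DMSO had 161518, 154135 and 178039. No member lay under 127649 reads in any library, and every member was tested. Reads carried no molecular identifiers, so errors from counting are lower limits.

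1M7 raised mutations over most of the segment. The summed mutation rate was 0.589%, 0.5997% and 0.586% after 1M7 treatment (replicates 1, 2 and 3) and 0.231%, 0.221% and 0.251% after DMSO. The 1M7 libraries all lay above the DMSO libraries, with means of 0.591% ± 0.00728 and 0.234% ± 0.0153 (SD, n = 3 each) and a ratio of 2.52. A two-sided exact permutation test returned p = 0.1, and 3 against 3 libraries allow no smaller value. Over the rest of the RNA the ratio was 2.74.

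The rate rose by 0.357 percentage points in the segment and by 0.356 in the rest. The amounts were close and the ratio was lower in the segment, where the DMSO rate was higher than in the pooled rest. The rest pools unlike segments, with rises of 0.384 (5') and 0.331 (3') and DMSO rates of 0.236% and 0.182%. Against the 5' segment, the DMSO rate of the middle segment was close (0.234%) and its rise smaller. The rate of the middle segment divided by the rate of the rest was 1.051, 1.058 and 1.054 in the 1M7 libraries and 1.148, 1.154 and 1.137 in the DMSO libraries. The groups did not overlap, with means of 1.05 ± 0.00348 and 1.15 ± 0.00852 (SD, n = 3 each, two-sided exact permutation p = 0.1, the smallest possible). The mean with 1M7 was thus 0.920 of that with DMSO, 0.961 when the equally long 5' segment was the reference and 0.896 for the 3' segment. The direction differed between bases. It was 0.607 at adenines and 0.871 at guanines, but 1.14 at cytidines and 1.03 at uridines (each exact permutation p = 0.1 and 0.1 after Benjamini-Hochberg adjustment over the 4 bases). High solvent backgrounds moved with this. Without the 32 members and 62 other nucleotides above 0.5% in any DMSO library, an alternative chosen after the values were seen, the value was 0.763 at adenines, 0.860 at cytidines, 0.933 at guanines and 1.03 at uridines. The call at cytidines thus turned direction without these nucleotides.

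**Figure D1:**
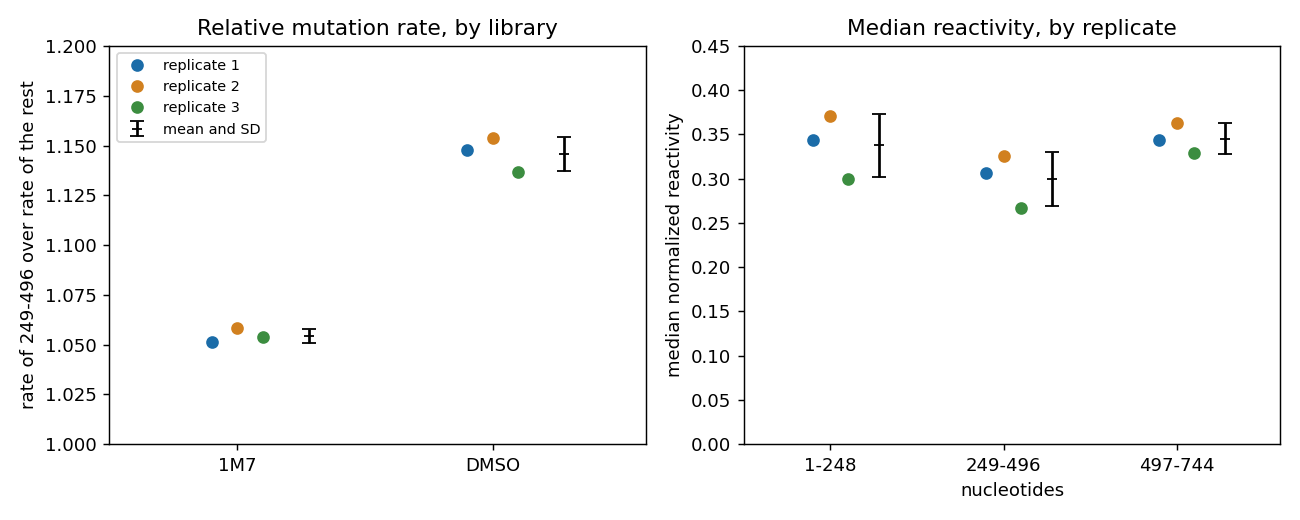
The left panel plots, for each library, the mutation rate of the middle segment divided by that of the rest of the RNA (axis from 1.0), and the right panel the median normalized reactivity of each segment in each replicate; black marks are means with SD (n = 3). The 1M7 libraries lie at 1.051 to 1.058 and the DMSO libraries at 1.137 to 1.154, and the median of the middle segment is the lowest of the 3 segments in each replicate.

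At the level of single nucleotides, 1M7 raised the rate at 246 members (99.2%) in edgeR's quasi-likelihood test after Benjamini-Hochberg adjustment over the 742 nucleotides tested, of which 98.8% were called. No member was called lower by edgeR (0 also at an unadjusted p under 0.05) or by DESeq2, which called 243 higher. All 3 1M7 libraries lay above all 3 DMSO libraries at 242 members, 97.6% of them, against 98% of all nucleotides tested. The share is therefore near that of the whole RNA. The median log2 ratio of 1M7 over DMSO was 1.07 (quartiles 0.63 and 2.16), a 2.10-fold increase, and 1.23 over all nucleotides. A called increase of at least 1 on the log2 scale was found at 134 members (54.0%) and at 59.4% of all nucleotides.

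The members that missed the threshold were G310 and A474. G310 had rates of 1.62%, 1.69% and 1.73% with 1M7 and 1.74%, 1.61% and 1.61% with DMSO, and its log2 ratio was 0.02 ± 0.07 (SE, adjusted p = 0.781 by edgeR). A474 had 1.06%, 0.802% and 1.01% with 1M7 and 0.918%, 0.915% and 0.810% with DMSO (log2 ratio 0.12 ± 0.09, SE, edgeR adjusted p = 0.183). The libraries overlapped at both nucleotides, and replicate 2 was the lowest at A474 with 1M7. Without replicate 2 its log2 ratio was 0.27 and passed the threshold (edgeR adjusted p = 0.00712).

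The median reactivity of the segment was 0.306, 0.326 and 0.267 in replicates 1, 2 and 3, and that of the rest 0.344, 0.365 and 0.312. The segment was lower in each replicate, by 0.0374, 0.0390 and 0.0457, a mean difference of -0.0407 ± 0.00436 (SD, n = 3, exact sign-flip permutation p = 0.25, the smallest that 3 values allow). After the median of each base was subtracted the difference was -0.0132, and when DMSO was not subtracted it was -0.00174. Members below 0.4 in all 3 replicates numbered 139, 56.0% of the segment against 52.4% of all nucleotides, and 41 were above 0.85 in all 3, 16.5% against 16.9%. No test was made on these shares.

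Bases differed within the segment. Uridines had the highest median reactivity, 0.604 ± 0.0155, and adenines followed with 0.465 ± 0.0513. The median was 0.298 ± 0.0390 for guanines and 0.140 ± 0.0123 for cytidines (SD, n = 3). At uridines it was 0.597, 0.593 and 0.621 in the 3 replicates, above the 0.491, 0.505 and 0.476 of uridines elsewhere. In the mean profile 66 of the 76 cytidines were low, against 110 of 127 in the rest of the RNA. Of the 76, 63 were low in all 3 replicates and 2 were high in all 3. The high ones were C429 with 0.980 ± 0.0938, next to the long low stretch described below, and C269 with 0.903 ± 0.0504, and the next most reactive cytidine was C249 with 0.780 ± 0.0193 (SD, n = 3). Of the 53 adenines, 14 were high in all 3 replicates and 23 low in all 3. Adenines that followed a uridine (5 members) had a median of 1.48 ± 0.0277 and the other 48 one of 0.410 ± 0.0369 (SD, n = 3). In the rest of the RNA these values were 1.01 for 19 and 0.394 for 86 adenines. Guanines after a uridine (18) had 0.680 ± 0.144 and other guanines (51) 0.268 ± 0.0448. In the rest these were 0.546 for 41 and 0.329 for 100 guanines. These contexts were chosen after the values were seen and were not tested.

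The 20 most reactive members past the threshold were 8 adenines, 9 guanines and 3 uridines, and none was a cytidine. They held 36.5% of the summed mean reactivity of the segment. They were chosen by the difference between the 1M7 and DMSO rates, so that their separation by treatment is a description. A251 was the highest, with reactivities of 4.36, 4.37 and 4.58, and its rate was 2.90%, 3.01% and 2.89% with 1M7 and 0.1003%, 0.0768% and 0.0951% with DMSO. This was a 32.2-fold increase (log2 ratio 5.01 ± 0.09, SE, edgeR adjusted p = 1.38e-24). A412 had the largest fold increase of the segment, 42.1 (log2 ratio 5.40 ± 0.10, SE, edgeR adjusted p = 1.19e-24), with rates of 2.48%, 2.67% and 2.63% against 0.0702%, 0.0517% and 0.0626%. Its reactivity was 3.76, 3.90 and 4.21, highest in replicate 3. A326, A296 and A366 followed by fold, with 28.7, 24.4 and 22.2, and mean reactivities of 2.03, 2.23 and 3.15.

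Other reactive nucleotides mutated more often without the reagent than those above, to differing degrees and with no sharp division. A313 had rates of 3.90%, 3.91% and 3.79% with 1M7 and 1.35%, 1.30% and 1.61% with DMSO, a 2.72-fold increase with a reactivity of 3.81 ± 0.208 (SD, n = 3). G264 had 4.50%, 4.62% and 4.48% against 2.21%, 2.16% and 2.34%, a 2.03-fold increase with a reactivity of 3.58 ± 0.0747. At both, the lowest 1M7 library lay well above the highest DMSO library. At G324, G340, G466 and G480 the folds were 3.95, 2.68, 2.74 and 3.97 and the reactivities 3.34, 2.70, 1.53 and 1.77. Their mean DMSO rates were 0.724%, 1.03%, 0.563% and 0.381%, and those of G414 and G451 were 0.306% and 0.275%. The fold was lowest at G256, 1.34, where a reactivity of 1.70 ± 0.313 (SD, n = 3) rested on rates of 4.25%, 4.46% and 4.17% over 3.21%, 3.09% and 3.30%. The remaining members of the 20 were U315, G451, G414, G400, U398, A253, U316 and A384, with mean reactivities from 1.65 to 2.49 and folds from 5.88 to 17.7.

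**Figure D2:**
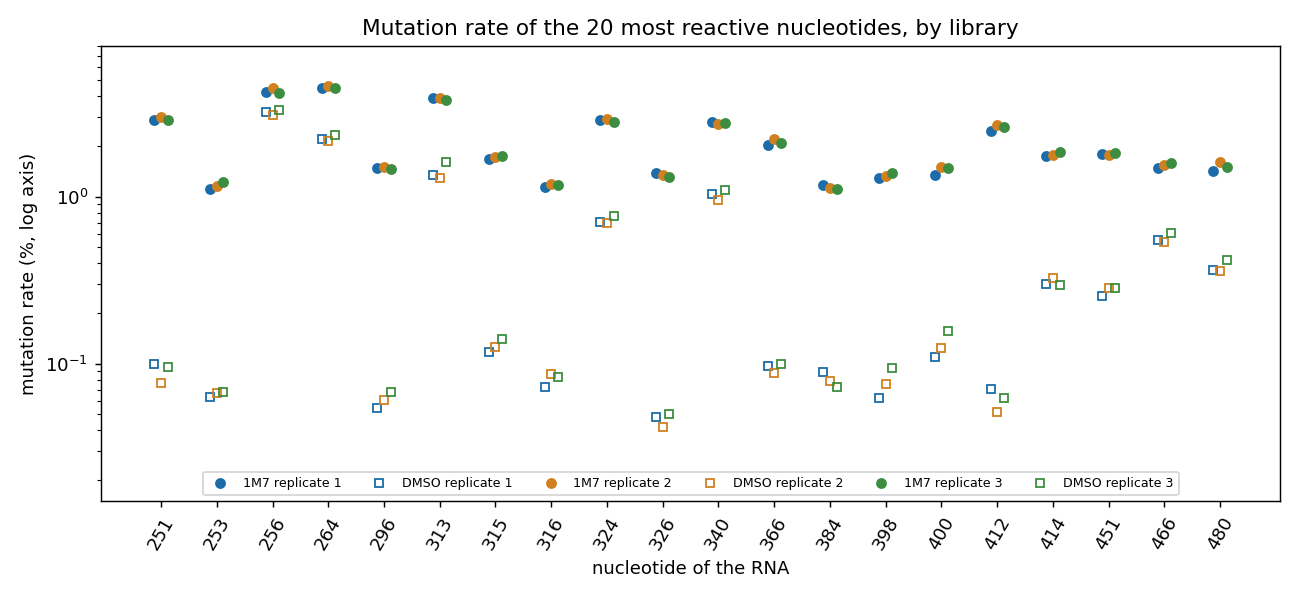
Mutation rate in percent (log axis) at the 20 most reactive nucleotides of the segment, in order of position, with filled circles for 1M7 libraries and open squares for DMSO libraries, coloured by replicate. All circles lie above all squares at each nucleotide, with the narrowest gap at 256 (1.34-fold) and the widest at 412 (42.1-fold).

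The highest solvent rates in the segment were those of G256, G264, G310, G408, G254 and A313, with means of 3.20%, 2.24%, 1.65%, 1.62%, 1.47% and 1.42%. The 5 guanines were the 5 highest of all 210 guanines of the RNA, whose median was 0.258%. A313 and A474 were the 2 highest of 160 adenines, 24.6 and 15.2 times the adenine median of 0.0579%. G408 rose from 1.62% to 2.42% with 1M7 (log2 ratio 0.57 ± 0.06, SE, edgeR adjusted p = 6.16e-09) and G254 from 1.47% to 1.89% (log2 ratio 0.35 ± 0.07, SE, edgeR adjusted p = 3.20e-05). What gave rise to these solvent mutations was not tested.

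The first stretch of the segment held its highest value, with low values on both sides in the mean profile. A251 (4.44) lay between G250 (0.391) and G252 (0.0936), and A253 had 1.72 ± 0.158 (SD, n = 3). A run of 4 adenines and a complementary run of 4 uridines follow. The replicate models described below did not pair these runs with each other, and all left U265 to U268 unpaired. The structure from sequence alone left A257 to A260 unpaired. Both runs are marked in capitals here to set them side by side.

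nucleotides 254 to 270: gggAAAAccugUUUUcu

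The adenines A257 to A260 had reactivities of 0.205, 0.312, 0.0835 and 0.367, all low in each of the 3 replicates. Their median was 0.259 ± 0.0224 (SD, n = 3), under the 0.465 of all adenines of the segment. The uridines U265 to U268 ranged from 0.471 to 0.817, with a median of 0.709 ± 0.0303 (SD, n = 3), and G264 just before them had 3.58. The whole run from U263 to A272 stayed at or above 0.4.

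Downstream the profile fell. The stretch C273 to G287, ccccggcucuagucg, stayed below 0.4 at all 15 nucleotides in all 3 replicates, with a median of 0.155 ± 0.0350 (SD, n = 3). Its rates were 0.283% ± 0.00892 with 1M7 and 0.181% ± 0.0131 with DMSO. U291 to A296 rose to at least 0.551, with A296 at 2.23, and G308 to U312 fell again to between 0.0339 and 0.103. The next nucleotide was among the most reactive. U312 had 0.0456, 0.0291 and 0.0271 and A313 3.97, 3.89 and 3.58.

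A313 opened the longest reactive stretch that every replicate model below left unpaired, nucleotides 313 to 329, printed with high members in capitals.

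nucleotides 313 to 329: AuUUuAccUuuGaAacG

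Its median was 0.813, 0.789 and 0.831 in the 3 replicates, a mean of 0.811 ± 0.0213 (SD, n = 3), and 8 of its 17 members were high in all 3. Reactivity varied within it from 0.0211 at C319 to 3.81 at A313, and G324 reached 3.36, 3.33 and 3.32. A325 and A327, on both sides of A326 (2.03), had 0.565 and 0.316. The stretch contains 7 uridines and 5 adenines and lies in the window 290 to 340, which had the highest median of the 51-nt windows within the segment, 0.551 in the mean profile.

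The nucleotides after it formed the lowest window, 331 to 381, with a median of 0.209 in the mean profile. Low values there were interrupted by single reactive nucleotides. In the sequence below, capitals mark the nucleotides paired in all 3 replicate models.

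nucleotides 330 to 387: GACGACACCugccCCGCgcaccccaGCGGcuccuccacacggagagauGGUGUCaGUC

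The helix of G333 to C338 with G378 to C383 has 6 pairs (gacacc with gguguc). The median over its arms was 0.147, 0.173 and 0.147 in the 3 replicates, and 11 of its 12 nucleotides were low in the mean profile, the exception being G378 with 0.515 ± 0.296 (SD, n = 3). A further 3 pairs, 330 to 332 with 385 to 387, continue it beyond A384, a nucleotide without a partner. A384 had 1.69, 1.56 and 1.70, while its neighbours C383 and G385 had 0.302 and 0.211. Of the nucleotides in the outer pairs, G330 had 1.27 and C332 0.709, while A331, G385, U386 and C387 had 0.139, 0.211, 0.166 and 0.394.

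Within this helix lies a hairpin of 4 pairs, 343 to 346 with 355 to 358 (ccgc with gcgg). Its arms had medians of 0.150, 0.151 and 0.0799. Between both helices U339 had 1.46 ± 0.0594 and G340 2.70 ± 0.0428 (SD, n = 3). The 8-nt loop 347 to 354 was mostly low, with a median of 0.338 ± 0.0174 (SD, n = 3). Only A349 in the loop was high, with 1.44, 1.42 and 1.43, and C350 to C353 ranged from 0.0377 to 0.377. The run 350 to 359 stayed below 0.4 in the mean profile, with a median of 0.167 ± 0.0501 (SD, n = 3). Of its 10 nucleotides, 8 were low in all 3 replicates. A366, between flanking cytidines at 0.0229 and 0.0314, had 3.04, 3.15 and 3.26.

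A smaller hairpin follows at 394 to 406, shown with its paired nucleotides in capitals.

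nucleotides 394 to 406: CGUCuagauGACG

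All 8 paired nucleotides were low in the mean profile, with a highest value of 0.270 and a median of 0.165 ± 0.0255 over the arms (SD, n = 3). The 5 loop nucleotides U398 to U402 had 1.97, 0.715, 2.05, 0.644 and 1.13. The loop values lay above the arm values in each replicate, with loop medians of 1.11, 1.09 and 1.18. This hairpin was also in the minimum free energy structure computed from sequence alone, in which no reactivity was used.

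Past the hairpin, A407 to U419 was reactive at every nucleotide but A415, which had 0.117, 0.124 and 0.146. The part that all replicate models left unpaired is shown with high members in capitals.

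nucleotides 411 to 419: uAuGaAAuU

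Its median was 1.11, 1.09 and 1.23, the highest of the stretches of 8 or more members left unpaired by all replicate models. A412 had 3.96, G414 2.34, A416 1.32 and U419 1.14. A415 is flanked by G414 and A416 and was low in all 3 replicates.

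**Figure D3:**
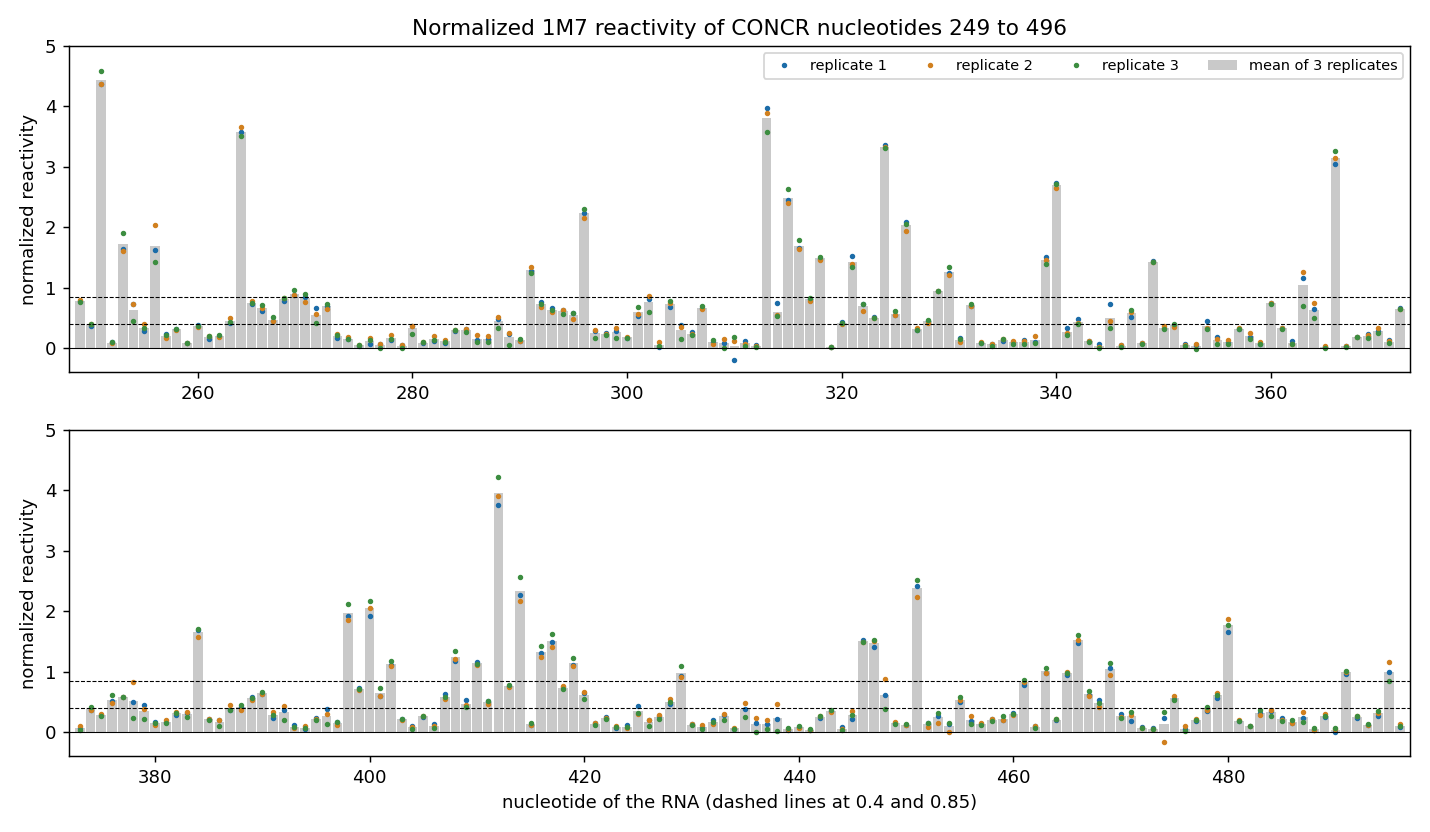
Normalized 1M7 reactivity (no unit) against nucleotide number for the first (top) and last (bottom) part of the segment; grey bars are means of 3 replicates, coloured points the replicates, and dashed lines mark 0.4 and 0.85. High values cluster at 313 to 329 and 407 to 419, while C273 to G287 and 430 to 445 stay below 0.4 in the mean.

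The last part of the segment was low for the most part. Nucleotides C424 to C496 had a median of 0.234 ± 0.0248 (SD, n = 3), and 50 of the 73 were low in all 3 replicates. The stretch 430 to 445 (cgugccgggcacgacc) had a median of 0.132 ± 0.0433, and its first 13 nucleotides are self-complementary around 3 nucleotides.

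nucleotides 430 to 442: CGUGCcggGCACG

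The capitals mark the 5 pairs that the models of replicates 2 and 3 formed, over which the median was 0.105 ± 0.0213 (SD, n = 3). The 3 nucleotides between the arms were low as well in the mean profile, 0.375 at C435, 0.130 at G436 and 0.129 at G437. The low loop therefore set this hairpin apart in value from that at 394 to 406, a difference that was not tested. C429, just before the first arm, was the most reactive cytidine of the segment. After A443 to C445, U446 and U447 had a median of 1.49 ± 0.0209, and G451 had 2.39 ± 0.146 (SD, n = 3). The stretch 481 to 490 (ccaggagcuc) stayed below 0.4 in all 3 replicates, directly after G480 with 1.66, 1.88 and 1.77.

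Reactivity was set against the structure predicted from sequence alone. Its 80 unpaired members had medians of 0.437, 0.401 and 0.396 and its 168 paired members 0.270, 0.304 and 0.225. The difference was 0.145 ± 0.0420 (SD, n = 3), positive in each replicate (exact sign-flip permutation p = 0.25, the smallest possible). When DMSO was not subtracted it was 0.0743. Of the 20 most reactive members, 8 were unpaired in that structure.

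Models directed by the reactivities paired 53.6%, 49.6% and 50.4% of the segment in replicates 1, 2 and 3, while the sequence-only structure paired 67.7%. The model of the mean profile had 83 pairs with a member of the segment, 50 within it, 5 to the 5' segment and 28 to the 3' segment. The replicate 1 model held all 83, the replicate 2 model 24 and the replicate 3 model 26. In all 3 replicate models there were 21 of the 83 pairs (25.3%), against 50.0% of all pairs of the RNA. This share depended on the settings. It was 77.9% in structures of maximum expected accuracy (60 of 77 pairs) and 83.1% when DMSO was not subtracted (69 of 83). It was 44.3% with a steeper reactivity term, 41.0% with pairs limited in span and 49.2% for the segment folded alone. Replicates 2 and 3 shared 70 pairs, 86.4% of the pairs of replicate 2 and 84.3% of those of replicate 3. Because the models used these reactivities, their paired and unpaired classes are no independent measure of them.

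Under the main settings the regions of the segment differed in how far the models shared partners, and these counts were not made under the others. Between 330 and 407, 62 of 78 nucleotides had the same partner, or none, in all 3 replicate models, and 17 of the 21 shared pairs lie there. From C249 to G329 the number was 32 of 81, and from G408 to C496 it was 28 of 89. The helices 333 to 338 with 378 to 383, 343 to 346 with 355 to 358 and 394 to 397 with 403 to 406 were in all replicate models. Each of the 8 other settings tried for the mean profile also kept them (folding parameters, method, span, the segment alone, no DMSO subtraction and each replicate left out). All of these settings used reactivities of these libraries. The structure from sequence alone held the helix of 394 to 397 with 403 to 406 but neither of the others. It also held 154 to 162 with 281 to 289, 442 to 445 with 690 to 693 and 453 to 456 with 487 to 490. Those helices were not in all replicate models. The boundaries 330 and 407 were drawn after the models were seen.

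Under the main settings the flanking helices differed between the replicate models. In the replicate 1 model a helix of 5 pairs joined 259 to 263 (aaccu) with 308 to 312 (ggguu), and helices at 424 to 445 reached the 3' segment at 690 to 713. That model alone also held helices of 4 pairs at 271 to 274 with 297 to 300, 277 to 280 with 287 to 290 and 453 to 456 with 487 to 490. Their arms had medians of 0.244 ± 0.0443, 0.162 ± 0.0438 and 0.191 ± 0.0297 (SD, n = 3). In the models of replicates 2 and 3 G308 to U312, together with U307, instead paired with 90 to 95 in the 5' segment. There, 281 to 289 (cuagucggc) paired with 154 to 162 (gccgauuag) over 9 pairs, and 420 to 428 with 480 to 488 over 9 pairs. The arms of the 281 to 289 helix had a median of 0.211 ± 0.0297 and those of the 259 to 263 helix 0.135 ± 0.0286 (SD, n = 3). Other arms were more reactive. The models of replicates 2 and 3 also paired 126 to 129 with 292 to 295 (0.575 ± 0.0313) and 115 to 119 with 302 to 306 (0.325 ± 0.0569). The helix of 420 to 428 with 480 to 488 includes G480, with a mean reactivity of 1.77. The nucleotides 308 to 312 were low in all replicates and paired in all replicate models, but with different partners. Each model is the single structure of lowest free energy. In all structures weighted by energy under the mean profile, mean pair probabilities were 0.266 to 0.604 for the replicate 1 helices above. They were 0.275 to 0.404 for helices of replicates 2 and 3 only, and 0.998 to 0.9996 for helices in all replicate models. The mean profile thus gave weight to both sets, and the differing models do not show that replicates held different structures.

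**Figure D4:**
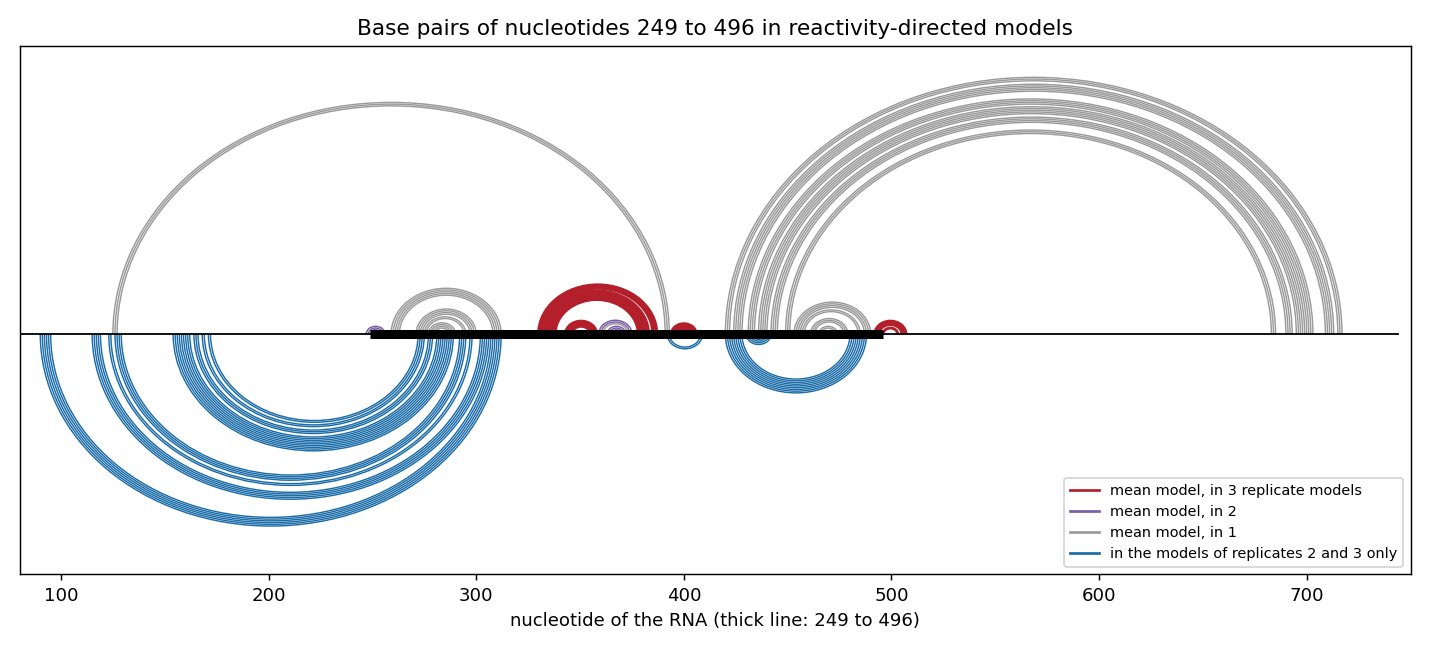
Arcs join nucleotides paired in reactivity-directed models, with nucleotide number on the axis and a thick line for the segment. Arcs above the line are the 83 pairs of the mean-profile model, coloured by how many replicate models hold them (21 in all 3), and blue arcs below are pairs of the replicate 2 and 3 models that the mean-profile model lacks.

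Replicates agreed closely in the profile itself. Across the members (nucleotides C249 to C496) Pearson's r was 0.994 between replicates 1 and 2, 0.990 between 1 and 3 and 0.985 between 2 and 3, and Spearman's rho was 0.972, 0.961 and 0.938. Nucleotides of 1 RNA share libraries and are not independent, so these values are descriptions. The class (low, intermediate or high) was the same in all 3 replicates at 225 members, 90.7%, and at 86.1% of the rest. The median SD between replicates was 0.0363 and the median deposited standard error 0.0284, and the SD was the larger at 161 members. That error matches counting noise of both libraries, so replicates spread by a median of 1.37 times counting noise. The widest spreads were at G256 (SD 0.313), U363 (0.307), G378 (0.296) and A474 (0.265), all with solvent rates of at least 0.881%. Replicate 3 was the lowest of the 3 at 111 members, and it was the highest at 27 of the 43 members whose mean was above 0.85.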

How the data were processed

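SHAPE-MaP tables of in vitro transcribed CONCR were analysed, 3 tables of 768 nucleotides, each with a 1M7 and a DMSO library. Mutation counts, read depths and effective depths are deposited counts per nucleotide, per the file headers. Rates are fractions as the authors deposited them, mutations over effective depth. The reactivity and its standard error are scores that the authors deposited, the rate difference times 156.0, 148.7 and 164.0 in replicates 1, 2 and 3. The aligner, the mutation caller and the genome build were not given in the sources used here. Of each table, 6 columns were left out, and so were nucleotides 745 to 768 at the reverse primer site. Counts were tested with edgeR 4.0.16 (quasi-likelihood, offset log effective depth, no further scaling, R 4.3.3) over 742 nucleotides and with DESeq2 1.42.0 as an alternative. Both were also run on simulated data in which only a part of the nucleotides changed, unlike here. The calls in these data do not rest on that run. The log2 ratios and SE come from edgeR. ViennaRNA 2.7.2 folded all 768 nucleotides at 37 °C, with Deigan terms (slope 1.8, intercept -0.6), negative values at 0 and no reactivity in the primer site. The 4 exact tests of the segment as a whole gave adjusted p of 0.2, 0.2, 0.25 and 0.25. The numpy 2.4.6, pandas 2.3.3 and scipy 1.17.1 packages were used.

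Within each group, libraries were further apart than sampling noise over the segment (chi-square over degrees of freedom 1.76 to 6.05) and were counted separately.

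Named were the 20 most reactive members past 0.05 and higher in all 3 numbered pairs, every member not past it, the 6 highest DMSO rates, the 3 most reactive cytidines, the 5 largest log2 ratios, runs of at least 3 above 0.85 (none was found), runs of at least 8 below 0.4, the extreme 51-nt windows and helices of at least 4 pairs. Members and rules were chosen with earlier results of these data known. Other stretches were chosen after their values were seen.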

Additional observations from a re-analysis of the deposited data

How the results depend on the processing

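Of 69 repeats of the overall results under other settings, 12 moved, 2 reversed and 55 did neither. For results with an exact test only a change of sign could count, so the 55 include changes in size. The difference of medians from the rest, for example, went from -0.0407 to -0.00174 without DMSO subtraction. The segment's rate over that of the rest, 1M7 relative to DMSO, reversed within cytidines (1.14) and uridines (1.03). With TMM scaling, which measures departure from the typical increase (the median log2 ratio over all nucleotides moved from 1.23 to 0.00), 94 members stood above and 123 below it. Without DMSO subtraction 80 members were below 0.4 and 77 above 0.85 in all replicates, on a scale that is higher throughout. The paired share of the segment was 48.0% with slope 2.6 and intercept -0.8, 49.6% in maximum expected accuracy structures, 50.8% for the segment folded alone and 44.4% without subtraction. The share of pairs in all replicate models was 44.3%, 77.9%, 49.2% and 83.1% under these, and 41.0% with a span of at most 300. With 1 replicate left out, members called higher numbered 237 to 246, the ratio of rates was 2.44 to 2.63, the relative value 0.917 to 0.922, the difference of medians -0.0423 to -0.0382, the paired share 53.6% and the share of shared pairs 25.3% to 31.3%. Deviations of same-numbered libraries from their group means correlated with 0.0149, -0.0733 and -0.115, and those of differently numbered libraries with -0.0377 to 0.113. No deviation shared by number was thus seen. These values cannot show whether same-numbered libraries came from the same RNA or folding. With the replicate block edgeR called 245 members higher, losing G309, the rate ratio was 2.53 and the relative value 0.920 (exact sign-flip permutation p = 0.25 each, the smallest possible). Of 135 repeats for 27 named nucleotides under 5 settings (DESeq2, the replicate block and each replicate left out), 132 held. TMM scaling, under which 123 members stood below the typical increase, was not among these settings. Neither was a minimum of 10 mutations in every library. The log2 ratio of G310 reversed to -0.0046 without replicate 2 and to -0.021 without replicate 3 (0.085 without replicate 1, none past the threshold), and A474 passed the threshold without replicate 2. With 3 libraries a group, exact tests cannot pass 0.05.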
